A study of Mus musculus with 18 samples.

Results

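The comparison described here set NK cells that carried CD49a inside colorectal liver metastases (LM) against ILC1 of the metastasis-free liver (MFL), with 3 libraries of each, or 6 of the 18 samples of the series. The members were chosen by the labelled cell population and not by any measured value. LM CD49a+ NK cells were sorted as lin- CD45+ NKp46+ CD49a+ CD49b+ from the metastases, and MFL ILC1 as lin- CD45+ NKp46+ CD49a+ CD49b- from liver without metastasis. Both came from female C57BL/6J mice that were 8 to 10 weeks old when MC38 cells, a mouse colon adenocarcinoma line, were injected into the spleen, which was then removed, and that were analyzed 20 days later. No library came from a tumor-free mouse, and ILC1 of the metastases and CD49a+ CD49b+ NK cells of the MFL were not analyzed here. Each library held RNA of cells sorted from 6 to 8 pooled samples, so a library is a pool and not an animal, and the labels do not tie the replicate numbers to individual sortings. The metastases were digested with Liberase for 30 minutes at 37 °C, whereas MFL was dissociated mechanically, so cell population, site and dissociation differed together and cannot be told apart in this comparison. The other 6 lymphocyte libraries, 3 of MFL NK cells (CD49a- CD49b+) and 3 of CD49a- CD49b+ NK cells of the metastases (LM CD49a- NK cells), served to estimate the spread and as points of reference.

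NK cells and ILC1 are the type 1 innate lymphocytes of the liver. Both carry NKp46 and use the transcription factor T-bet to make IFN-γ, but NK cells circulate, depend on Eomesodermin and kill by perforin and granzymes, whereas liver ILC1 are long-lived residents that depend on T-bet and the residency factor Hobit, lack Eomesodermin and carry the death ligand TRAIL. CD49a, the α chain of the collagen-binding integrin VLA-1 encoded by Itga1, marks ILC1 in the liver at rest and is gained by NK cells in tissues rich in TGF-β, while CD49b, the α chain of VLA-2 encoded by Itga2, marks circulating NK cells. Cells with both integrins therefore fall outside the classical gates, and this comparison addresses which genes separate them from the resident ILC1 that share CD49a.

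In the 6 libraries, total estimated counts lay between 10078965 and 12387665, and 10511 to 12093 genes per LM CD49a+ NK library and 11651 to 13218 genes per MFL ILC1 library had at least 10 counts. Genes of the mitochondrial genome, ribosomal RNA and small RNAs made up 5.34% to 9.10% of an LM CD49a+ NK library and 4.85% to 15.2% of an MFL ILC1 library, the most in MFL ILC1 replicate 1. The biological coefficient of variation was 1.09 among the LM CD49a+ NK libraries and 0.657 among the MFL ILC1 libraries, so the former were the noisier group. The defining gene of T cells that the lineage gate removes, Cd3e, had 0, 38 and 5 counts in LM CD49a+ NK cells and 0, 5 and 0 counts in MFL ILC1. Markers of other liver and tumor cells were low but not equal. Hepatocyte markers summed to 12 to 35.6 CPM in LM CD49a+ NK cells and 126 to 150 CPM in MFL ILC1, and 15 of the 21 were at 0 in every LM CD49a+ NK library. Neutrophil markers summed to 0 to 3.99 CPM in LM CD49a+ NK cells and 110 to 156 CPM in MFL ILC1, mainly through Mmp9, with S100a9 at 0 in all 6 libraries. Macrophage markers summed to 3.68 to 56.7 CPM in LM CD49a+ NK cells and 34 to 182 CPM in MFL ILC1, tumor epithelium markers to 41.7 to 89.7 CPM in LM CD49a+ NK cells and 87 to 127 CPM in MFL ILC1, dendritic cell markers to 51 to 105 CPM in LM CD49a+ NK cells and 23.9 to 57.7 CPM in MFL ILC1, B and plasma cell markers to 117 to 124 CPM in LM CD49a+ NK cells and 145 to 188 CPM in MFL ILC1, erythroid and platelet markers to 82.4 to 242 CPM in LM CD49a+ NK cells and 112 to 922 CPM in MFL ILC1, and endothelial and stellate cell markers, nearly all of it Pecam1, to 222 to 292 CPM in LM CD49a+ NK cells and 123 to 145 CPM in MFL ILC1. Of the 44 members of these 8 lists that could be tested, Mmp9 alone was called, lower in LM CD49a+ NK cells. The part of other cells in the results was not tested. In sorted bulk RNA, a lower value of a gene can mean fewer cells with its RNA or less RNA in each cell, and these cannot be told apart.

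LM CD49a+ NK cells differed from MFL ILC1 in genes of lineage, homing, killing and growth. Eomes, Irf8, S1pr1, Prf1 and 8 of 11 tested members of the Ly49 list, pseudogenes included, were higher in LM CD49a+ NK cells. Zfp683, Cxcr6, P2rx7, Tnfsf10, Cd160 and Cd226 were lower. The mitotic, glycolytic, early response and heat shock genes were called higher in larger shares than all genes. Of 13594 genes tested with edgeR's quasi-likelihood test and Benjamini-Hochberg adjustment, 311 (2.29%) were called higher and 175 (1.29%) lower in LM CD49a+ NK cells at an adjusted p under 0.1, together 486 (3.58%). These shares are the background for every count of list members given hereafter. The lists were chosen with earlier results of these data known, so a share above the background is a description and not a test. Every LM CD49a+ NK library lay above every MFL ILC1 library for 1268 genes (9.33%) and below for 1885 (13.9%), and the median log2 fold change over all tested genes was -0.07. Of the 13594 genes, 6340 had a log2 fold change above 0. List counts of genes without overlap or above 0 are to be read beside these numbers. Leaving out LM CD49a+ NK replicate 3 left 201 higher and 115 lower calls, and leaving out MFL ILC1 replicate 1, 2 or 3 left 187, 188 and 166 higher and 93, 85 and 91 lower calls. The number of libraries, 3 against 3, allows an exact two-sided permutation test of a single gene no p below 0.1, so the adjusted p values rest on the spread shared across genes and libraries, and as the labels do not say that pools shared no animals, they measure the spread between these pools. Values are given for replicates 1, 2 and 3 of LM CD49a+ NK cells and then, after the word against, of MFL ILC1. Fold changes are log2 values of LM CD49a+ NK cells over MFL ILC1 with their SE, and levels are TMM-scaled CPM, which are not corrected for gene length and are not compared between genes.

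**Figure D1:**
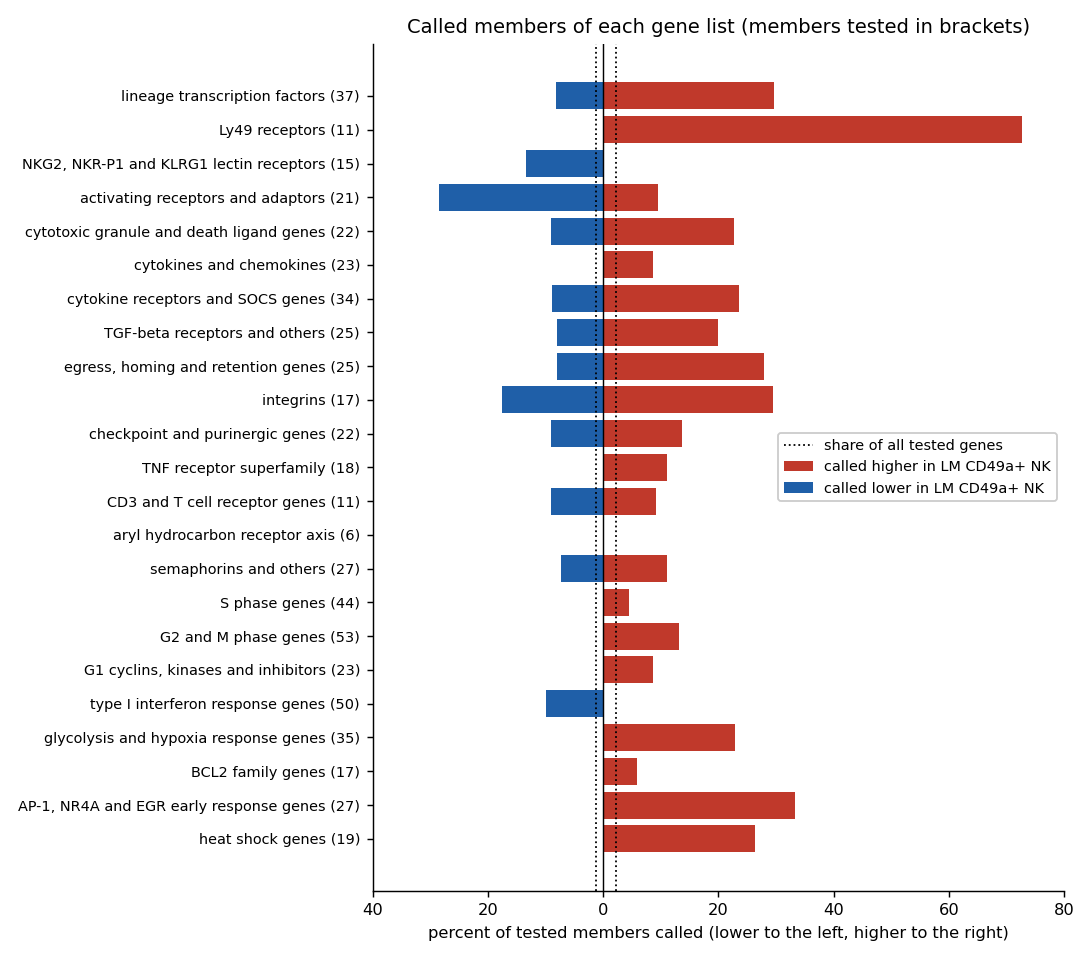
Percent of the tested members of each gene list called higher (red, to the right) or lower (blue, to the left) in LM CD49a+ NK cells relative to MFL ILC1, with the number of tested members in brackets and dotted lines at the shares of all tested genes, 2.29% higher and 1.29% lower. The Ly49 list has the longest bar, 8 of 11 members, all called higher, with the pseudogenes Klra13-ps and Klra14-ps among them. The called interferon response genes were lower. Klrd1 and Klrc2, also lower, were the only calls of the list of NKG2, NKR-P1 and KLRG1 receptors. The lists were chosen with earlier results of these data known.

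The sort itself fixed the integrin pattern, so Itga1 and Itga2 are given as a description. Itga1 was read at 156, 143 and 105 CPM in LM CD49a+ NK cells and 680.4, 664 and 646 CPM in MFL ILC1, and was thus present in both groups at different levels, while MFL NK cells had 11.5 ± 7.46 and LM CD49a- NK cells 11.4 ± 5.62 CPM (SD, n = 3 here and hereafter). Itga2 stood at 65.7, 102 and 219 against 54.2, 31.3 and 25.3 CPM, and MFL NK cells had 346 ± 41.1 CPM. Ncr1, which encodes NKp46, was found at 495, 752 and 498 against 894, 901 and 1043 CPM (log2 fold change -0.70, 95% interval -1.17 to -0.23, adjusted p = 0.138), and Ptprc, which encodes CD45, at 2993, 3191 and 3384 against 3047, 2328 and 2300.2 CPM, with overlapping groups. The sample titles call the LM CD49a+ NK libraries ILC1, whereas their population label gives CD49a+ CD49b+. Of the 3 markers taken for NK cells, Eomes, Itgam and S1pr5 were all called higher in these libraries, S1pr5 not when the 6 libraries were fitted alone (adjusted p = 0.134), and of the 3 taken for ILC1, Cxcr6, Zfp683 and Tnfsf10 were all called lower, so the libraries are named here by their population label.

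Transcription factors of the lymphocyte lineages separated the populations in both directions, with 11 of 37 tested members called higher and 3 lower. Eomes (ENSMUSG00000032446.15, GRCm39 chr9:118307280-118315200), the T-box factor of the NK lineage, lay at 499.9, 658 and 902 CPM in LM CD49a+ NK cells and 40.2, 13.2 and 7.58 CPM in MFL ILC1. The groups did not overlap, and the lowest LM CD49a+ NK library was above the highest MFL ILC1 library (log2 fold change 5.08 ± 0.49, adjusted p = 1.29e-05). The level in MFL NK cells was 668 ± 91.2 CPM and in LM CD49a- NK cells 945 ± 181 CPM, so all 3 NK populations had Eomes RNA and MFL ILC1 had little. The related T-box factor Tbx21, which encodes T-bet and is needed by both lineages, was read at 366, 348 and 383 against 323, 379 and 342 CPM, with overlapping groups (log2 fold change 0.07, 95% interval -0.39 to 0.53, adjusted p = 0.963). Zfp683 (chr4:133781149-133786327), which encodes the residency factor Hobit, had the opposite pattern to Eomes, at 8.81, 0.391 and 0.797 against 217, 236 and 204 CPM (log2 fold change -6.04 ± 0.89, adjusted p = 0.000779). LM CD49a+ NK replicate 1 was the only 1 of the 3 with more than 1 CPM of Zfp683, and MFL NK and LM CD49a- NK cells had 0.468 ± 0.365 and 0.0634 ± 0.0573 CPM.

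Factors of early and maturing lymphocytes were among the higher calls. Myb (chr10:21000834-21036883), a factor of progenitors and proliferating cells, stood at 116, 151 and 323 CPM in LM CD49a+ NK cells and 0, 1.32 and 0 CPM in MFL ILC1 and was nearly missing from the ILC1 libraries (log2 fold change 8.66 ± 0.86, adjusted p = 1.8e-05). Irf8, which NK cells need for maturation and antiviral responses, was found at 967, 764 and 1684 against 173, 113 and 97.5 CPM (log2 fold change 3.16 ± 0.38, adjusted p = 0.000122). Lef1 and Tcf7 encode the HMG-box factors that act downstream of Wnt signals and in early NK and ILC development. Lef1 lay at 100, 133 and 105 against 22.5, 19.2 and 21.8 CPM (log2 fold change 2.41 ± 0.27, adjusted p = 5.23e-05), and Tcf7 at 453, 397 and 386 against 229.5, 78.9 and 69.6 CPM (log2 fold change 1.71 ± 0.37, adjusted p = 0.0152). For Lef1 the MFL NK level of 119.5 ± 4.49 CPM was close to that of the metastasis libraries, whereas for Tcf7 MFL NK cells had 176 ± 28.8 CPM, nearer to the ILC1 mean, and LM CD49a- NK cells 281 ± 76 CPM.

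Of the lower calls, Bcl11b is a zinc finger factor of T cells and ILC2 that is also found in maturing NK cells. Bcl11b was read at 0, 3.75 and 0 CPM in LM CD49a+ NK cells and 133, 113 and 109 CPM in MFL ILC1 (log2 fold change -6.51 ± 1.45, adjusted p = 0.0194), and was detected in 1 of the 3 LM CD49a+ NK libraries. Its mean log2 CPM in MFL NK cells lay nearer to MFL ILC1, and that in LM CD49a- NK cells nearer to LM CD49a+ NK cells. Tox, an HMG-box factor needed for ILC and NK development, stood at 26.8, 34.9 and 23.2 against 151, 160.1 and 133 CPM, with no overlap (log2 fold change -2.39 ± 0.40, adjusted p = 0.00246). Prdm1, which encodes the residency and maturation factor Blimp-1, was found at 110.4, 28.8 and 91 against 32.6, 38.1 and 33.8 CPM, with LM CD49a+ NK replicate 2 inside the range of the ILC1 libraries (log2 fold change 1.14, 95% interval 0.34 to 1.93, adjusted p = 0.161).

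**Figure D2:**
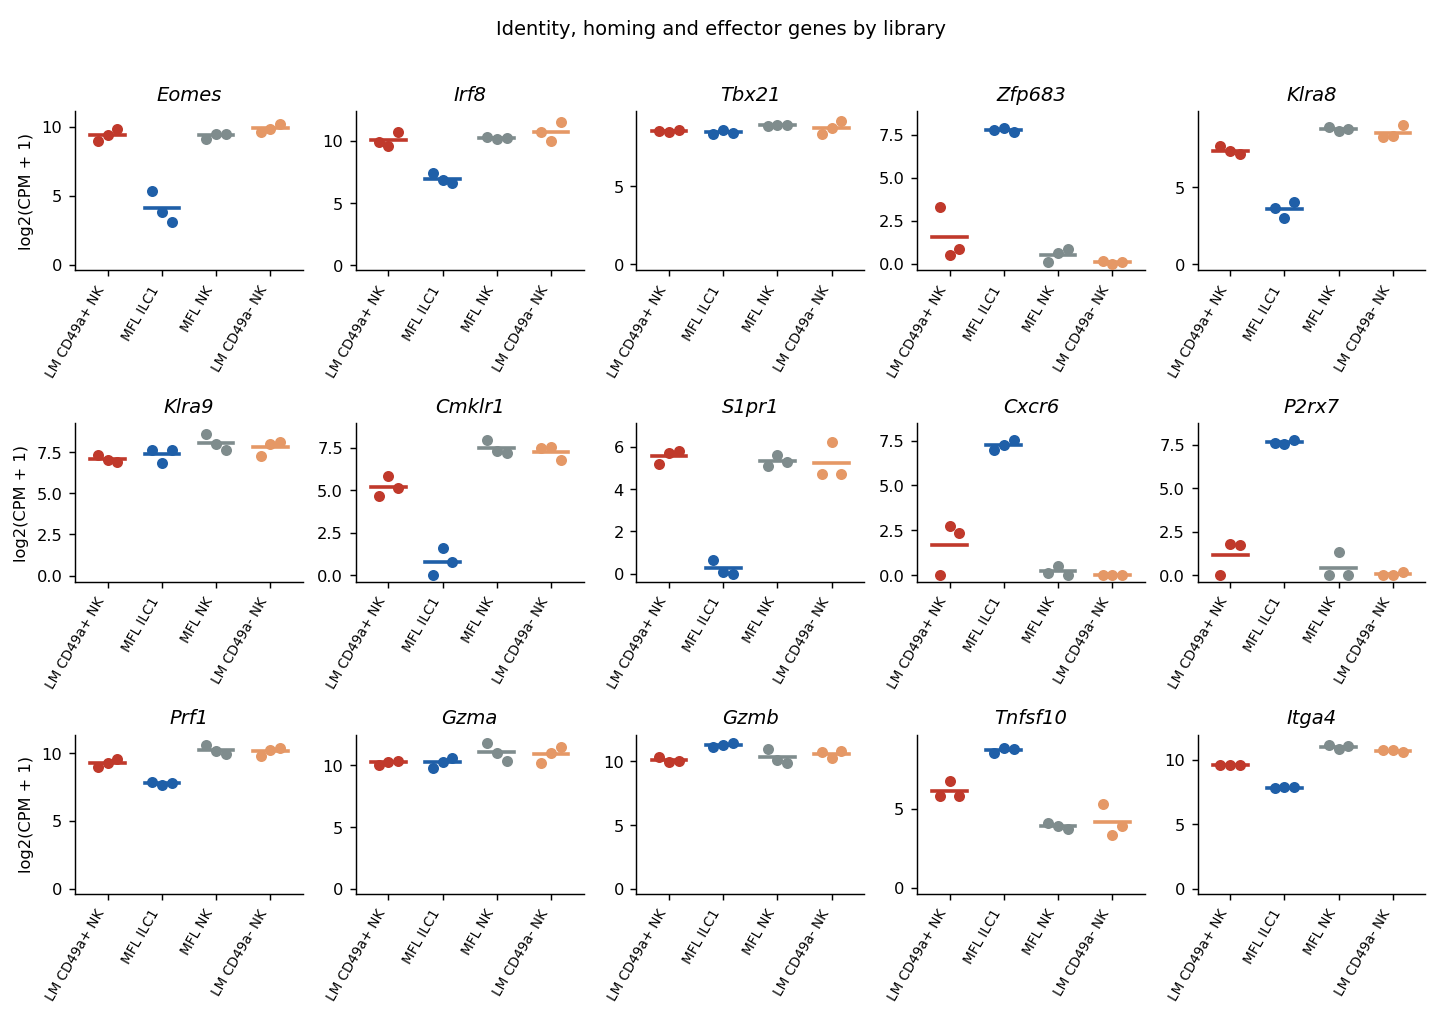
Levels of 15 identity, homing and effector genes as log2(CPM + 1) on the vertical axis, 1 point per library and a bar at the mean of 3 libraries, for LM CD49a+ NK cells (red), MFL ILC1 (blue), MFL NK cells (grey) and LM CD49a- NK cells (orange). Eomes, Irf8, Klra8, S1pr1, Cmklr1 and Itga4 of LM CD49a+ NK cells lie above MFL ILC1 without overlap, as do those of both other NK populations, Zfp683, Cxcr6 and P2rx7 are high in MFL ILC1 alone, and for Tbx21, Klra9 and Gzma the red and blue points overlap.

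The Ly49 receptors are lectin receptors encoded side by side in the Klra cluster. Most bind MHC class I, and most, but not all, mark NK cells in the liver. Their list showed the highest share of calls of any list, with 8 of 11 tested members (72.7%) called higher and none lower. The called members included the pseudogenes Klra13-ps and Klra14-ps, with log2 fold changes of 2.53 and 3.10, so not every call is a receptor gene. Over the 11 members the median log2 fold change was 3.10. All LM CD49a+ NK libraries lay above all MFL ILC1 libraries for 9, beside 9.33% of all tested genes. Klra8 (chr6:130092152-130106938), which encodes the activating receptor Ly49H, lay at 202, 161 and 143 CPM in LM CD49a+ NK cells and 11.5, 6.95 and 15.8 CPM in MFL ILC1 (log2 fold change 3.89 ± 0.32, adjusted p = 1.64e-06). The MFL NK level was 453 ± 43.3 CPM, so LM CD49a+ NK cells lay between MFL ILC1 and MFL NK cells. Klra4, which encodes the activating Ly49D, was read at 132, 89.9 and 70.2 against 26.2, 2.34 and 2.27 CPM (log2 fold change 3.24 ± 0.66, adjusted p = 0.0114), Klra7, which encodes the inhibitory Ly49G, at 231, 207 and 152 against 43.5, 7.32 and 10 CPM (log2 fold change 3.28 ± 0.55, adjusted p = 0.00218), and Klra3, which encodes the inhibitory Ly49C, at 40.5, 64.3 and 42.4 against 13, 9.66 and 8.91 CPM (log2 fold change 2.22 ± 0.48, adjusted p = 0.0161). For Klra4, MFL ILC1 replicate 1 stood above the other ILC1 libraries but below every LM CD49a+ NK library. Klra1 and Klra10 were also called higher, with log2 fold changes of 4.07 and 3.65, although LM CD49a+ NK replicate 3 had only 4.09 and 0.996 CPM of them. Fitted on the 6 compared libraries alone, the calls of Klra4 and Klra10 were lost (adjusted p = 0.110 and 0.307), and that of Klra10 was also lost with limma-voom (adjusted p = 0.152). Klra9 stood at 156, 130.4 and 119.7 against 197, 111 and 200.1 CPM, with overlapping groups (log2 fold change -0.32, 95% interval -0.96 to 0.31, adjusted p = 0.773). Klra5 was the only 1 of the 11 with every MFL ILC1 library above every LM CD49a+ NK library. It had 65.9 to 68.9 CPM in MFL ILC1 and 0.299 to 16.1 CPM in LM CD49a+ NK cells, and was not called. Klra5 was chosen after its values were seen. The Klra genes are near-identical neighbors whose reads can be assigned to more than 1 member, so the split between members is uncertain.

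The other lectin receptors of the NK gene complex did not follow the Ly49 receptors, with 0 of 15 tested members called higher, 2 lower and a median log2 fold change of -0.59. Klrd1, which encodes CD94, the partner of the NKG2 receptors, was found at 158, 154 and 101 CPM in LM CD49a+ NK cells and 241, 219 and 270.4 CPM in MFL ILC1 (log2 fold change -0.82 ± 0.23, adjusted p = 0.0848), and Klrc2, which encodes the activating NKG2C, at 59.8, 136 and 209 against 498, 294 and 289 CPM (log2 fold change -1.42 ± 0.41, adjusted p = 0.0921). The call of Klrd1 was lost on leaving out any library but LM CD49a+ NK replicate 2, with an adjusted p of up to 0.334. The call of Klrc2 was lost on leaving out any library but LM CD49a+ NK replicate 3, with an adjusted p of up to 0.348. Klrc1, which encodes the inhibitory NKG2A, lay at 382, 279 and 431 against 499, 512 and 626 CPM (log2 fold change -0.59, 95% interval -1.08 to -0.10, adjusted p = 0.255). Klrk1, which encodes the activating receptor NKG2D, was read at 574, 623 and 525 against 840.4, 654 and 739 CPM (log2 fold change -0.37, 95% interval -0.83 to 0.08, adjusted p = 0.491). For both genes every MFL ILC1 library lay above every LM CD49a+ NK library. The maturation marker Klrg1 overlapped, with 4.65, 23.2 and 25.5 against 13.3, 2.42 and 4.55 CPM, and reached 96.8 ± 44.8 CPM in MFL NK cells.

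Activating receptors and their signaling adaptors were split, with 2 of 21 tested members called higher and 6 lower. Cd7 (chr11:120927570-120930289), an immunoglobulin superfamily receptor of early lymphocytes, stood at 120.5, 165 and 136 CPM in LM CD49a+ NK cells and 894, 974 and 954 CPM in MFL ILC1 (log2 fold change -2.74 ± 0.28, adjusted p = 2.57e-05). The MHC class I receptor Cd160 was found at 56.2, 45.8 and 30.4 against 315, 220.3 and 297 CPM (log2 fold change -2.65 ± 0.49, adjusted p = 0.00547), and Cd226, which encodes DNAM-1, the receptor for the nectin-family ligands CD155 and CD112 on tumor cells, at 72.7, 74.8 and 90.9 against 339, 276 and 267 CPM (log2 fold change -1.89 ± 0.37, adjusted p = 0.00786). For these 3 receptors every LM CD49a+ NK library lay below every ILC1 library, and MFL NK cells, with 115 ± 24.8, 31.4 ± 9.47 and 35.5 ± 10.6 CPM of Cd7, Cd160 and Cd226, were on the side of the LM CD49a+ NK cells. Slamf7 and Cd244a, which encode SLAM-family receptors, were called lower, with log2 fold changes of -1.70 and -1.31. In the other direction, the adhesion receptor Cd2 lay at 357, 242 and 222 against 97.9, 66.2 and 92.9 CPM (log2 fold change 1.68 ± 0.25, adjusted p = 0.000887), and Cd247, which encodes the CD3ζ chain that signals for NKp46 and CD16, at 111, 190.1 and 187 against 32.9, 62 and 64.8 CPM (log2 fold change 1.61 ± 0.31, adjusted p = 0.00754). Fcgr3, which encodes CD16, overlapped, with 79.1, 85.8 and 40.8 against 35, 54.6 and 60.3 CPM (log2 fold change 0.46, 95% interval -0.38 to 1.30, adjusted p = 0.746).

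The list of cytotoxic granule and death ligand genes was called in both directions, with 5 of 22 tested members higher and 2 lower. The higher calls included the serpin genes Serpinb9, Serpinb9b and Serpinb6b, which do not encode killing proteins. The promoters of 4 granule genes are shown because these genes moved in different directions, Prf1 higher, Gzmb lower and Gzma and Gzmc not called. They are the 250 bases before the RefSeq start of each gene in GRCm38.p6, on the strand of the gene, 5′ to 3′, with matches to the Runx motif TGTGGT and the AP-1 motif TGAGTCA, searched on both strands, in capitals.
Prf1, chr10:61297586-61297835, plus strand: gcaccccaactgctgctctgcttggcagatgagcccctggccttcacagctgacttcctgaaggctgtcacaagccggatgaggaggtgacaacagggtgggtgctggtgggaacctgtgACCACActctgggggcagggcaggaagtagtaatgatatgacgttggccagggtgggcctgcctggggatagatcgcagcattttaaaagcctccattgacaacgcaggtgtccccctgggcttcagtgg
Gzma, chr13:113100982-113101231, minus strand: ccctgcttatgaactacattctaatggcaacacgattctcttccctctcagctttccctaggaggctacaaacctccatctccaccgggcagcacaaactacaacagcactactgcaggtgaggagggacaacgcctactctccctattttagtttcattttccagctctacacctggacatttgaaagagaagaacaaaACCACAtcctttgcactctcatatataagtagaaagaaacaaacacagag
Gzmb, chr14:56262335-56262584, minus strand: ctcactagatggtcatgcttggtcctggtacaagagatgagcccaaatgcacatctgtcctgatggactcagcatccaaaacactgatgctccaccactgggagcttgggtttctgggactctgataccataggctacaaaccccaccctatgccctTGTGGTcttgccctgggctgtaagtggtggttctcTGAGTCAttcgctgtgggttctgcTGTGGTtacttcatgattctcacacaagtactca
Gzmc, chr14:56234658-56234907, minus strand: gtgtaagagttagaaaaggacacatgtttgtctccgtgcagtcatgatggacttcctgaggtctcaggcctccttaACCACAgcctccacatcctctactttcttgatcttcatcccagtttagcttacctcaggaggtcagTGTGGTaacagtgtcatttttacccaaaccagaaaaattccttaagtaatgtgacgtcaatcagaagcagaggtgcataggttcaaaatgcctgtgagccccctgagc
All 4 windows held the Runx letters, at 1 place in Prf1 and Gzma and at 2 in Gzmb and Gzmc, and the window of Gzmb alone held the AP-1 letters. The Runx letters were held by 14% and the AP-1 letters by 4.46% of all 32851 RefSeq promoters. Promoters of genes called higher, 340 promoters of 240 of the 311 genes, held them in 12.9% and 4.41%, and promoters of genes called lower, 185 promoters of 130 of the 175 genes, in 18.9% and 7.03%, beside 11.3% and 3.03% for the promoters of all tested genes. A match is a run of letters and not a bound site, and these shares were not tested.

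Prf1, which encodes the pore-forming perforin, was read at 491, 629.6 and 748 CPM in LM CD49a+ NK cells and 233, 203 and 224 CPM in MFL ILC1, so every LM CD49a+ NK library exceeded every MFL ILC1 library (log2 fold change 1.5 ± 0.25, adjusted p = 0.00193). Both other NK populations were higher still, with means of 1246 ± 296 CPM (MFL NK cells) and 1143 ± 249.9 CPM (LM CD49a- NK cells). Gzmb, which encodes the caspase-activating granzyme B, stood at 1266, 962 and 1036 against 2257, 2526 and 2699.9 CPM (log2 fold change -1.20 ± 0.28, adjusted p = 0.0262), again without overlap but with MFL ILC1 on top. Gzma, which encodes granzyme A, was found at 1051, 1235 and 1307 against 892, 1199 and 1564 CPM and overlapped (log2 fold change -0.02, 95% interval -0.75 to 0.71, adjusted p = 0.995). Gzmc, which encodes granzyme C, lay at 139, 53 and 28.6 against 167, 146 and 161 CPM, and was not called (log2 fold change -1.10, 95% interval -2.53 to 0.32, adjusted p = 0.539), whereas MFL NK and LM CD49a- NK cells had 1.04 ± 0.0185 and 4.93 ± 4.57 CPM. Tnfsf10 (chr3:27371033-27396576), which encodes TRAIL, was read at 53.7, 105 and 55 against 368, 449 and 430.3 CPM (log2 fold change -2.54 ± 0.42, adjusted p = 0.00187), and the level in LM CD49a+ NK cells lay between that of ILC1 and the 14.1 ± 2.22 CPM of MFL NK cells. Fasl, the other death ligand, stood at 134, 163 and 143 against 143, 133 and 149 CPM and overlapped (log2 fold change 0.05, 95% interval -0.51 to 0.62, adjusted p = 0.977).

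Inhibitors that protect killer cells from their own proteases were higher. Serpinb9, a granzyme B inhibitor, was found at 363, 319 and 893 CPM in LM CD49a+ NK cells and 126, 109 and 149 CPM in MFL ILC1 (log2 fold change 2.04 ± 0.42, adjusted p = 0.0118), and the related Serpinb9b at 43.9, 45.7 and 98.8 against 3.48, 0.366 and 0 CPM (log2 fold change 5.60 ± 0.86, adjusted p = 0.00107). Serpinb6b, a further serpin of the same family, was called higher although its groups overlapped (log2 fold change 1.40 ± 0.38, adjusted p = 0.0667). The call of Gzmb was lost on leaving out LM CD49a+ NK replicate 3 or MFL ILC1 replicate 3, with an adjusted p of up to 0.105. The call of Serpinb6b was lost on leaving out LM CD49a+ NK replicate 1 or 3 or MFL ILC1 replicate 2 or 3, with an adjusted p of up to 0.308. Over the list, the count of higher calls was 3 without LM CD49a+ NK replicate 1 or 3 or MFL ILC1 replicate 3, and that of lower calls was 1 without LM CD49a+ NK replicate 3 or MFL ILC1 replicate 3.

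Among cytokines and chemokines, 2 of 23 tested members were called higher and none lower. Vegfa (chr17:46327919-46343309), which encodes the angiogenic growth factor VEGF-A, lay at 488, 72.5 and 952 CPM in LM CD49a+ NK cells and 1.19, 3.73 and 4.45 CPM in MFL ILC1 (log2 fold change 7.33 ± 0.97, adjusted p = 0.000268). LM CD49a+ NK replicate 2 was far below the other 2 metastasis libraries and still above every ILC1 library, and LM CD49a- NK cells had 610.5 ± 565 CPM against 81.1 ± 24.8 CPM in MFL NK cells. Tgfb1, which encodes TGF-β1, was read at 409, 381 and 689 against 157, 186 and 149 CPM (log2 fold change 1.59 ± 0.30, adjusted p = 0.00691), and LM CD49a- NK cells had 513 ± 229 CPM. Ifng, the main cytokine of type 1 lymphocytes, stood at 203, 59.2 and 161 against 133, 114 and 136 CPM and overlapped (log2 fold change 0.14, 95% interval -0.85 to 1.14, adjusted p = 0.965). The dendritic cell attractant Xcl1 at 197, 67.1 and 62.3 against 102, 102 and 169 CPM and the chemokine Ccl5 at 499, 873 and 1133 against 992, 1361 and 1344 CPM overlapped as well. Tnf was found at 23.8, 14.8 and 2.39 against 66.3, 36.5 and 46.1 CPM, lower in every LM CD49a+ NK library but not called (log2 fold change -1.86, 95% interval -4.33 to 0.61, adjusted p = 0.558).

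Of the cytokine receptors and SOCS genes, 8 of 34 tested members were called higher and 3 lower. Il18r1, which encodes the receptor chain that binds IL-18, lay at 427, 386 and 339.7 CPM in LM CD49a+ NK cells and 91.7, 61.3 and 75.2 CPM in MFL ILC1 (log2 fold change 2.34 ± 0.25, adjusted p = 3.2e-05), in the range of MFL NK cells (454 ± 40.6 CPM). Ifngr1, which encodes the ligand-binding chain of the IFN-γ receptor, was read at 926, 899.7 and 1601 against 386, 299.8 and 319 CPM (log2 fold change 1.77 ± 0.29, adjusted p = 0.00181), and Il12rb2, a chain of the IL-12 receptor, at 277, 226 and 339.7 against 129.6, 173 and 169 CPM (log2 fold change 0.84 ± 0.23, adjusted p = 0.0735). Socs3, the feedback inhibitor of gp130 cytokine signals, stood at 185, 114 and 391 against 49.6, 44.6 and 42.7 CPM (log2 fold change 2.33 ± 0.41, adjusted p = 0.00310), and Stat3, the transducer of those signals, at 704, 463 and 997 against 208, 331 and 275 CPM (log2 fold change 1.41 ± 0.31, adjusted p = 0.0172). Of the lower calls, Il7r, which encodes the IL-7 receptor typical of ILC, was found at 36.2, 12.4 and 14.3 against 182, 73.6 and 94.5 CPM (log2 fold change -2.48 ± 0.54, adjusted p = 0.0166), and Il21r, which encodes the IL-21 receptor, at 66.2, 35 and 56.8 against 199.7, 257 and 211 CPM (log2 fold change -2.08 ± 0.35, adjusted p = 0.00216). Ifnar2, a chain of the type I interferon receptor, had a log2 fold change of -1.15 (adjusted p = 0.0785). Il2rb, which encodes the shared β chain of the IL-2 and IL-15 receptors, lay at 2747, 2488 and 3115 against 2427, 2761 and 2386 CPM (log2 fold change 0.14, 95% interval -0.29 to 0.57, adjusted p = 0.886), and Socs2, an ILC1-linked inhibitor, at 26.7, 21 and 40.6 against 68.8, 82 and 89.2 CPM, where MFL ILC1 was higher in every library but was not called apart (log2 fold change -1.44, 95% interval -2.74 to -0.15, adjusted p = 0.292). The call of Il7r was lost on leaving out MFL ILC1 replicate 1, with an adjusted p of up to 0.196. The call of Il12rb2 was lost on leaving out any library but LM CD49a+ NK replicate 2, with an adjusted p of up to 0.322. The call of Stat3 was lost on leaving out LM CD49a+ NK replicate 3 or MFL ILC1 replicate 1, with an adjusted p of up to 0.122. The call of Ifnar2 was lost on leaving out LM CD49a+ NK replicate 3 or MFL ILC1 replicate 1, 2 or 3, with an adjusted p of up to 0.301. Higher calls of these receptors numbered 5 without LM CD49a+ NK replicate 3 or MFL ILC1 replicate 1, and lower calls numbered 1 without MFL ILC1 replicate 1.

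TGF-β signals through the receptors TGFBR2 and TGFBR1 to SMAD proteins, and its targets include feedback inhibitors and integrins. Of 25 tested members of this axis, 5 were called higher and 2 lower. The receptor genes were not called. Tgfbr2 was read at 194, 237 and 233 CPM in LM CD49a+ NK cells and 239.6, 220.0 and 195 CPM in MFL ILC1 (log2 fold change 0.02, 95% interval -0.42 to 0.46, adjusted p = 0.991), and Tgfbr1 at 27.1, 25.7 and 69.6 against 69.9, 111 and 78.4 CPM (log2 fold change -1.08, 95% interval -2.07 to -0.10, adjusted p = 0.300). Of the higher members 4 encode inhibitors of the pathway. Smad7, which blocks the receptors, stood at 330.0, 181 and 725 against 99, 108 and 128 CPM (log2 fold change 1.88 ± 0.43, adjusted p = 0.0231), Skil, which encodes the SMAD corepressor SnoN, at 429.8, 287 and 1226 against 225, 151 and 147 CPM (log2 fold change 1.89 ± 0.47, adjusted p = 0.0398), and Tgif1, a further corepressor, at 125, 68.5 and 468 against 21.6, 13.4 and 16.2 CPM (log2 fold change 3.69 ± 0.64, adjusted p = 0.00314). Pmepa1, which encodes a SMAD-sequestering membrane protein, was found at 75.2, 60.7 and 97.4 against 16.4, 9.08 and 7.86 CPM (log2 fold change 2.81 ± 0.75, adjusted p = 0.0606), with 4.80 ± 3.85 CPM (MFL NK cells) and 40.6 ± 38.5 CPM (LM CD49a- NK cells). Rgs16, the fifth, which encodes a regulator of G protein signals, lay at 97.8, 39.3 and 114 against 3.23, 1.39 and 1.14 CPM (log2 fold change 5.44 ± 0.73, adjusted p = 0.000281). Smad3, the receptor-activated transducer, overlapped (log2 fold change 0.28, 95% interval -0.24 to 0.79, adjusted p = 0.752). Of the lower members, Nedd9, a scaffold of integrin signals, was read at 259, 226 and 242 against 610.0, 651 and 631 CPM (log2 fold change -1.38 ± 0.24, adjusted p = 0.00266), and Itgav, which encodes the αV integrin that can activate latent TGF-β, at 71.4, 97.5 and 94.1 against 201, 226 and 182 CPM (log2 fold change -1.21 ± 0.29, adjusted p = 0.0296). The call of Smad7 was lost on leaving out LM CD49a+ NK replicate 3 or MFL ILC1 replicate 1, with an adjusted p of up to 0.183. The call of Skil was lost on leaving out LM CD49a+ NK replicate 3 or MFL ILC1 replicate 2 or 3, with an adjusted p of up to 0.296. The call of Pmepa1 was lost on leaving out any library but LM CD49a+ NK replicate 2, with an adjusted p of up to 0.242. The call of Itgav was lost on leaving out LM CD49a+ NK replicate 1 or MFL ILC1 replicate 2, with an adjusted p of up to 0.145. Higher calls in the axis numbered 3 without MFL ILC1 replicate 1, 2 or 3 and 2 without LM CD49a+ NK replicate 3, and lower calls numbered 1 without LM CD49a+ NK replicate 1 or MFL ILC1 replicate 2.

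Of 25 tested homing and retention genes 7 were called higher and 2 lower. S1pr1 (chr3:115504071-115508721), which encodes the sphingosine-1-phosphate receptor that leads lymphocytes out of tissue, stood at 35.3, 50.6 and 55.7 CPM in LM CD49a+ NK cells and 0.594, 0.0732 and 0 CPM in MFL ILC1 (log2 fold change 7.66 ± 0.91, adjusted p = 9.69e-05), and MFL NK cells had 40 ± 7.81 CPM. S1pr5, the sphingosine-1-phosphate receptor of mature NK cells, was found at 29, 78.8 and 9.66 against 0.170, 3.59 and 4.45 CPM (log2 fold change 3.84 ± 0.81, adjusted p = 0.0141), below the 249.9 ± 37.7 CPM of MFL NK cells, and was not called with the 6 libraries alone (adjusted p = 0.134). Cxcr4 (chr1:128515936-128520044), which encodes the receptor for the retention chemokine CXCL12, lay at 161, 92.7 and 723 against 0.764, 2.63 and 0.568 CPM (log2 fold change 7.89 ± 0.93, adjusted p = 9.69e-05), and LM CD49a+ NK replicate 3 was the highest of the 3. The chemerin receptor gene Cmklr1, carried by mature NK cells, was read at 25, 57.3 and 33.8 against 0, 2.05 and 0.758 CPM (log2 fold change 5.31 ± 0.67, adjusted p = 0.000173). For these 4 genes no library of either group reached the range of the other.

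The 2 lower calls were residency genes. Cxcr6 (chr9:123635534-123640825), which encodes the receptor for CXCL16 on liver sinusoids, stood at 0, 5.55 and 4.09 CPM in LM CD49a+ NK cells and 126, 149.8 and 182 CPM in MFL ILC1 (log2 fold change -5.56 ± 1.05, adjusted p = 0.00854), and was at 0 in 1 of the 3 LM CD49a+ NK libraries. P2rx7 (chr5:122781942-122830400), which encodes the ATP-gated channel by which extracellular nucleotides act on resident lymphocytes, was found at 0, 2.42 and 2.29 against 194, 184 and 216 CPM (log2 fold change -6.95 ± 1.13, adjusted p = 0.00186). MFL NK and LM CD49a- NK cells had 0.175 ± 0.235 and 0 ± 0 CPM of Cxcr6. Cxcr3, which encodes the receptor for CXCL9 and CXCL10, lay at 29.3, 60.7 and 20.8 against 81.4, 135 and 152 CPM, lower in every LM CD49a+ NK library but not called (log2 fold change -1.73, 95% interval -2.89 to -0.57, adjusted p = 0.136), while MFL NK and LM CD49a- NK cells had 16.6 ± 4.26 and 11.4 ± 9.87 CPM. Cd69, which encodes the antagonist of S1P receptor 1 that is used as a residency marker, was read at 434, 200.2 and 359 against 259.7, 197 and 129.9 CPM and overlapped (log2 fold change 0.76, 95% interval -0.06 to 1.58, adjusted p = 0.409). Cx3cr1, the fractalkine receptor gene of mature NK cells, stood at 0.678, 25.7 and 28 against 7.30, 2.12 and 0 CPM, with 1 library of each group under 1 CPM (log2 fold change 2.52, 95% interval 0.24 to 4.81, adjusted p = 0.300), with 97.2 ± 35.6 CPM in MFL NK cells.

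Beyond the integrins used in the sort, 5 of 17 tested integrin genes were called higher and 3 lower. Itga4, which encodes the α4 chain of VLA-4, was found at 764, 756 and 794 CPM in LM CD49a+ NK cells and 224, 234 and 232 CPM in MFL ILC1, with no overlap (log2 fold change 1.74 ± 0.20, adjusted p = 7.05e-05), and MFL NK cells had 2097 ± 254 CPM. Itgam, which encodes CD11b, a marker of NK cell maturity, lay at 136, 314 and 309 against 31.6, 48.5 and 38.6 CPM (log2 fold change 2.68 ± 0.30, adjusted p = 6.77e-05), with 936 ± 203 CPM in MFL NK cells. For both, LM CD49a+ NK cells lay between MFL ILC1 and MFL NK cells. Itgb1, the β chain that pairs with α1, α2 and α4, was read at 1057, 1155 and 1207 against 307, 346 and 337 CPM (log2 fold change 1.79 ± 0.23, adjusted p = 0.000237), whereas Itga5 and Itga6, which encode chains of fibronectin and laminin receptors, were called higher with log2 fold changes of 1.95 and 2.24. Itgad, which encodes CD11d, stood at 4.07, 1.56 and 7.77 against 41.7, 71.7 and 81.2 CPM (log2 fold change -3.86 ± 0.81, adjusted p = 0.0135), and Itgax, which encodes CD11c, at 391, 414 and 372 against 658, 726 and 803 CPM (log2 fold change -0.89 ± 0.21, adjusted p = 0.0293). Itgb3, the β chain partner of αV, was found at 206, 119 and 159.6 against 93.6, 84.7 and 74.5 CPM, higher in every LM CD49a+ NK library but not called (log2 fold change 0.94, 95% interval 0.32 to 1.56, adjusted p = 0.133). Itgae, which encodes CD103, had at most 3.48 CPM in any of the 6 libraries. The call of Itga5 was lost on leaving out MFL ILC1 replicate 1 or 3, with an adjusted p of up to 0.161. The call of Itga6 was lost on leaving out LM CD49a+ NK replicate 3 or MFL ILC1 replicate 1 or 3, with an adjusted p of up to 0.172. The call of Itgax was lost on leaving out LM CD49a+ NK replicate 3 or MFL ILC1 replicate 2 or 3, with an adjusted p of up to 0.163. Integrin calls numbered, on the higher side, 3 without MFL ILC1 replicate 1 or 3, and lower calls numbered 1 without MFL ILC1 replicate 2.

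**Figure D3:**
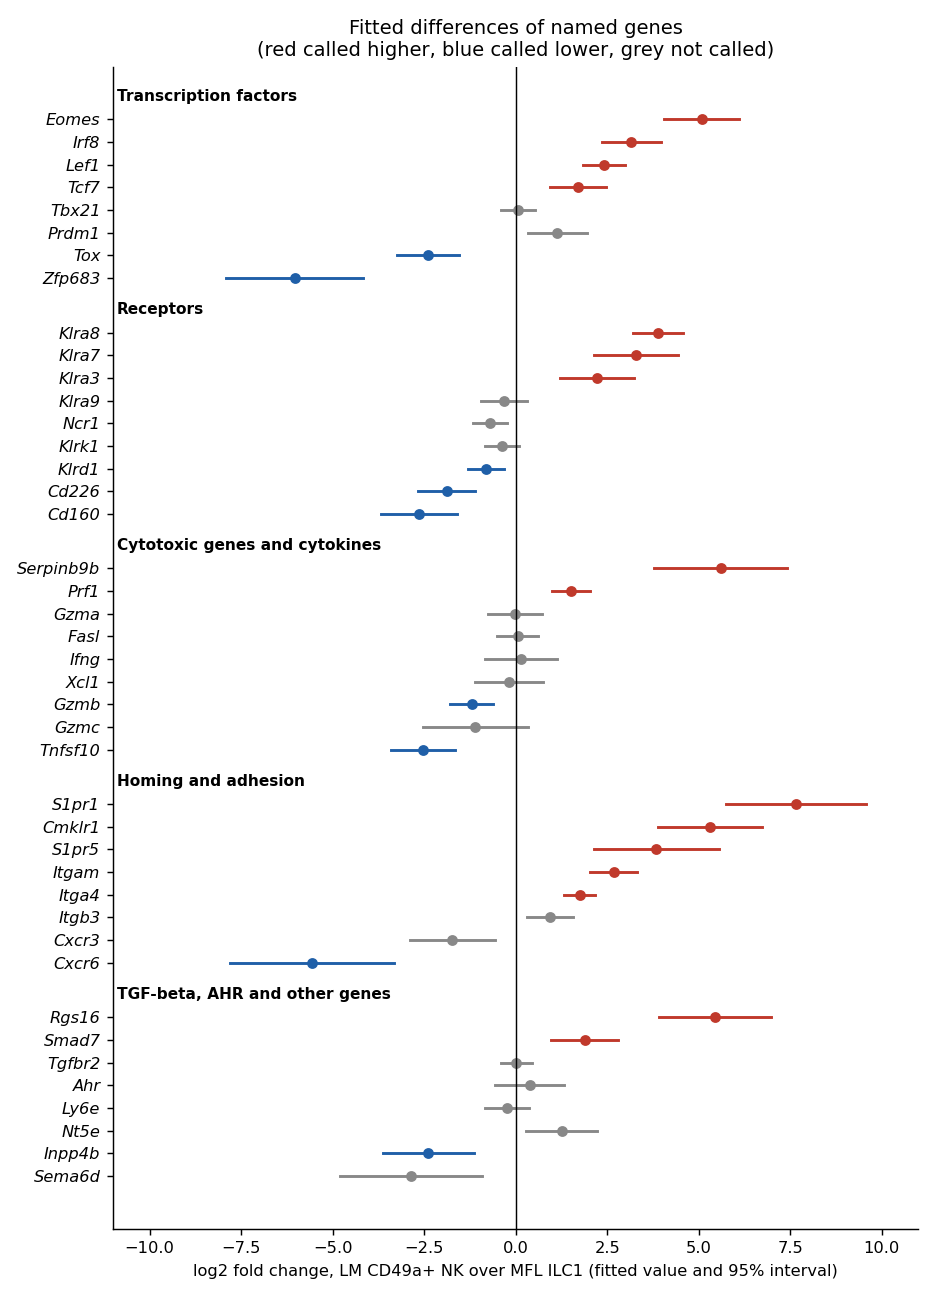
Fitted log2 fold changes of LM CD49a+ NK cells over MFL ILC1 for 42 named genes, each with its 95% interval from edgeR's quasi-likelihood fit, on a horizontal axis in log2 units. Red points were called higher, blue points lower and grey points not called at an adjusted p under 0.1, so a grey interval that misses 0, such as that of Cxcr3 or Itgb3, did not pass the adjustment over all genes.

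Checkpoint and purinergic genes gave 3 higher and 2 lower calls among 22 tested members, each of which was lost when some single library was left out. Lag3, an inhibitory receptor gene for MHC class II, lay at 0, 4.30 and 0 CPM in LM CD49a+ NK cells and 60.2, 87.4 and 76.9 CPM in MFL ILC1 (log2 fold change -5.67 ± 1.51, adjusted p = 0.0597), and Cd200r1, the inhibitory receptor gene for CD200, at 0, 13.7 and 7.07 against 193, 161 and 142 CPM (log2 fold change -4.57 ± 1.24, adjusted p = 0.0650). Tigit, the inhibitory receptor gene for CD155, was read at 192, 63.6 and 185 against 48.9, 51.5 and 45.1 CPM (log2 fold change 1.6 ± 0.45, adjusted p = 0.0755), and the purinergic receptor genes P2ry14 and P2ry10 had log2 fold changes of 4.26 and 1.5. Nt5e, which encodes the adenosine-making CD73, stood at 81.1, 52.4 and 96.6 against 46, 22.8 and 27.9 CPM (log2 fold change 1.25, 95% interval 0.28 to 2.22, adjusted p = 0.213), and Cd274, which encodes PD-L1, at 173, 68.9 and 164 against 53.5, 65.9 and 58.9 CPM (log2 fold change 1.19, 95% interval 0.37 to 2.00, adjusted p = 0.152). Both were higher in every LM CD49a+ NK library and neither was called. Entpd1, which encodes CD39, was found at 35, 53.8 and 93.5 against 133, 142 and 129 CPM (log2 fold change -1.15, 95% interval -2.08 to -0.22, adjusted p = 0.237), and Pdcd1, which encodes PD-1, did not exceed 4.61 CPM in any library. The calls of Lag3, Tigit and P2ry10 were lost on leaving out any library but LM CD49a+ NK replicate 2, with adjusted p values of up to 0.176, 0.268 and 0.249 in that order. The call of P2ry14 was lost on leaving out LM CD49a+ NK replicate 3 or MFL ILC1 replicate 2 or 3, with an adjusted p of up to 0.245. The call of Cd200r1 was lost on leaving out LM CD49a+ NK replicate 3 or MFL ILC1 replicate 1, 2 or 3, with an adjusted p of up to 0.241. Higher calls of checkpoint and purinergic genes numbered 1 without LM CD49a+ NK replicate 1 or MFL ILC1 replicate 1 and 0 without LM CD49a+ NK replicate 3 or MFL ILC1 replicate 2 or 3, and lower calls numbered 4 without LM CD49a+ NK replicate 1 and 0 without LM CD49a+ NK replicate 3 or MFL ILC1 replicate 1, 2 or 3.

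Of the TNF receptor superfamily, 2 of 18 tested members were called higher and none lower. Tnfrsf9, which encodes the costimulatory receptor 4-1BB, lay at 208, 137 and 125 CPM in LM CD49a+ NK cells and 42.4, 79.4 and 67.8 CPM in MFL ILC1 (log2 fold change 1.31 ± 0.33, adjusted p = 0.0437), with MFL NK cells at 62.6 ± 16.3 CPM. Tnfrsf1b, a TNF receptor gene, was called with overlapping groups (log2 fold change 1.05 ± 0.31, adjusted p = 0.0963). Tnfrsf18, which encodes GITR, was read at 32, 92.7 and 124 against 78.4, 76.8 and 107 CPM and overlapped (log2 fold change -0.07, 95% interval -0.98 to 0.83, adjusted p = 0.983). The call of Tnfrsf9 was lost on leaving out LM CD49a+ NK replicate 1 or MFL ILC1 replicate 1 or 3, with an adjusted p of up to 0.228. The call of Tnfrsf1b was lost on leaving out any library but LM CD49a+ NK replicate 2, with an adjusted p of up to 0.434. Higher calls of the superfamily numbered 1 without LM CD49a+ NK replicate 3 or MFL ILC1 replicate 2 and 0 without LM CD49a+ NK replicate 1 or MFL ILC1 replicate 1 or 3.

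T cell receptor genes that innate lymphocytes can transcribe without a receptor were split, with 1 of 11 tested members called in each direction. Cd3g stood at 35.7, 13.8 and 1.69 CPM in LM CD49a+ NK cells and 224, 522 and 668 CPM in MFL ILC1 (log2 fold change -4.79 ± 0.75, adjusted p = 0.00130), so MFL ILC1 had the RNA in every library while Cd3e was close to 0. Trdc, the constant gene of the T cell receptor δ chain, was found at 72, 78.1 and 62.8 against 13, 12 and 14.5 CPM (log2 fold change 2.43 ± 0.36, adjusted p = 0.000867), close to the 61.3 ± 18.2 CPM of MFL NK cells. Cd3d lay at 0, 16.4 and 2.99 against 0, 1.98 and 4.83 CPM and overlapped (log2 fold change 1.51, 95% interval -3.23 to 6.25, adjusted p = 0.892).

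None of the 6 tested genes of the aryl hydrocarbon receptor axis, a ligand-activated pathway that supports liver ILC1, was called by edgeR's quasi-likelihood test. At an unadjusted p under 0.05 there were 2, Tiparp and Arnt2, DESeq2 and limma-voom each called 1 lower, and 1 was called higher without LM CD49a+ NK replicate 2 or without the low-count filter. Ahr was read at 159, 89.9 and 163 CPM in LM CD49a+ NK cells and 110.2, 105 and 102 CPM in MFL ILC1 (log2 fold change 0.38, 95% interval -0.57 to 1.33, adjusted p = 0.848), whereas MFL NK cells had 10.5 ± 5.98 and LM CD49a- NK cells 43.5 ± 26.8 CPM. Tiparp, a target gene of the receptor, stood at 50.1, 22.1 and 149.8 against 31.7, 21.7 and 24.3 CPM and overlapped (log2 fold change 1.51, 95% interval 0.22 to 2.81, adjusted p = 0.268). Of 27 tested semaphorin, plexin, phosphoinositide and other genes linked to ILC1, 3 were called higher and 2 lower. Inpp4b, a phosphoinositide phosphatase gene of ILC1, was found at 107, 59.5 and 80.8 against 421, 447 and 432 CPM (log2 fold change -2.39 ± 0.59, adjusted p = 0.0380), with 4.33 ± 3.72 CPM in MFL NK cells, and LM CD49a+ NK cells thus lay between. The paralog Inpp4a lay at 1.26, 32.1 and 38.3 against 129.6, 160.3 and 145 CPM (log2 fold change -2.60 ± 0.67, adjusted p = 0.0502). Sema6d was read at 42.9, 11 and 21.9 against 204, 168 and 176 CPM, lower in every LM CD49a+ NK library but not called (log2 fold change -2.86, 95% interval -4.79 to -0.92, adjusted p = 0.144), and Ly6e at 508, 409.6 and 303 against 502, 472 and 461 CPM, with overlap (log2 fold change -0.23, 95% interval -0.84 to 0.37, adjusted p = 0.854). Of the higher calls, the semaphorin receptor gene Plxnc1 stood at 53.6, 27.5 and 61.9 against 8.32, 4.39 and 1.61 CPM (log2 fold change 3.32 ± 0.66, adjusted p = 0.00939), and the phosphoinositide signaling genes Pik3r5 and Inpp5d had log2 fold changes of 1.29 and 0.70. The call of Inpp4b was lost on leaving out LM CD49a+ NK replicate 2 or 3 or MFL ILC1 replicate 1, with an adjusted p of up to 0.137. The call of Inpp4a was lost on leaving out MFL ILC1 replicate 1, 2 or 3, with an adjusted p of up to 0.120. The call of Pik3r5 was lost on leaving out LM CD49a+ NK replicate 3 or MFL ILC1 replicate 1 or 3, with an adjusted p of up to 0.194. The call of Inpp5d was lost on leaving out any library but LM CD49a+ NK replicate 2, with an adjusted p of up to 0.379. Semaphorin-list calls numbered, on the higher side, 1 without LM CD49a+ NK replicate 3 or MFL ILC1 replicate 1 or 3, and lower calls numbered 1 without LM CD49a+ NK replicate 2 or 3 or MFL ILC1 replicate 2 or 3 and 0 without MFL ILC1 replicate 1.

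Genes of cell division were called only in the higher direction by edgeR's quasi-likelihood test. Of 53 tested G2 and M phase genes, 7 were called higher (13.2%, beside 2.29% of all genes) and 0 lower. The median was 1.74, and 47 had a log2 fold change above 0, beside 6340 of all 13594 genes. In 25 every LM CD49a+ NK library lay above every MFL ILC1 library, beside 9.33% of all genes. Mki67, the proliferation marker Ki-67, was found at 612, 331 and 667 CPM in LM CD49a+ NK cells and 132, 140.2 and 59.4 CPM in MFL ILC1 (log2 fold change 2.28 ± 0.37, adjusted p = 0.00168), and Top2a, the topoisomerase of dividing cells, at 328, 235 and 231 against 36.5, 52.8 and 25.2 CPM (log2 fold change 2.79 ± 0.37, adjusted p = 0.000281). MFL NK cells had 282 ± 55.4 and 118 ± 14.7 CPM of Mki67 and Top2a, and LM CD49a- NK cells 316 ± 119.6 and 148 ± 88.5 CPM, between both groups. Cenpf, a kinetochore gene, lay at 108, 57.8 and 109 against 23.8, 24.6 and 7.30 CPM (log2 fold change 2.3 ± 0.52, adjusted p = 0.0206), and the spindle genes Tpx2 and Kif23 had log2 fold changes of 2.87 and 2.44. Cdk1 and Ccnb2, which encode the mitotic kinase and a cyclin partner, were low, at 4.45, 11.2 and 10.2 against 0, 2.05 and 1.61 CPM for Cdk1 and 25, 16.1 and 10.6 against 2.12, 3.15 and 0.663 CPM for Ccnb2, and were not called. The call of Cenpf was lost on leaving out MFL ILC1 replicate 3, with an adjusted p of up to 0.109. The call of Tpx2 was lost on leaving out any library but LM CD49a+ NK replicate 2, with an adjusted p of up to 0.297. The call of Kif23 was lost on leaving out any library but LM CD49a+ NK replicate 3, with an adjusted p of up to 0.312. The count of called members was 4 without LM CD49a+ NK replicate 1 or 3 or MFL ILC1 replicate 1, 3 without MFL ILC1 replicate 2 and 2 without MFL ILC1 replicate 3.

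S phase genes gave fewer calls, with 2 of 44 tested members called higher, none lower and a median of 0.61. The replicative helicase genes Mcm7 and Mcm6 were called, at 147, 117 and 89.5 CPM in LM CD49a+ NK cells and 49.3, 51 and 60.8 CPM in MFL ILC1 for Mcm7 (log2 fold change 1.13 ± 0.28, adjusted p = 0.0423) and 242, 245 and 215 against 150.3, 131 and 119.9 CPM for Mcm6 (log2 fold change 0.81 ± 0.21, adjusted p = 0.0588). Pcna, the sliding clamp gene, was read at 159, 114 and 158 against 169.6, 129.6 and 147 CPM and overlapped (log2 fold change -0.05, 95% interval -0.56 to 0.46, adjusted p = 0.975), and Rrm2, a ribonucleotide reductase gene, stood at 44.3, 18.9 and 26 against 5.77, 9.59 and 7.30 CPM (log2 fold change 1.97, 95% interval 0.33 to 3.62, adjusted p = 0.251). Of 23 tested G1 genes 2 were called higher, the kinase gene Cdk6, at 90, 152 and 244 against 89.5, 59.6 and 43.5 CPM (log2 fold change 1.33 ± 0.39, adjusted p = 0.0963), and the growth regulator Myc, at 284, 118 and 251 against 81.5, 69.8 and 78 CPM (log2 fold change 1.51 ± 0.45, adjusted p = 0.0973). Ccnd2, which encodes cyclin D2, was found at 357, 567 and 509.9 against 701, 990.4 and 853 CPM (log2 fold change -0.83, 95% interval -1.36 to -0.30, adjusted p = 0.114). Ccnd2 was called lower under 5 of the 14 alternatives, among them DESeq2, limma-voom and the replicate block, and DESeq2 called 3 G1 genes lower. The call of Mcm7 was lost on leaving out LM CD49a+ NK replicate 1 or MFL ILC1 replicate 1, 2 or 3, with an adjusted p of up to 0.215. The call of Mcm6 was lost on leaving out any library but LM CD49a+ NK replicate 3, with an adjusted p of up to 0.305. The call of Cdk6 was lost on leaving out any library but LM CD49a+ NK replicate 1, with an adjusted p of up to 0.394. The call of Myc was lost on leaving out any library but LM CD49a+ NK replicate 2, with an adjusted p of up to 0.324. The S phase count was 1 without LM CD49a+ NK replicate 2 and 0 without LM CD49a+ NK replicate 1 or MFL ILC1 replicate 1, 2 or 3, and the G1 count was 1 without LM CD49a+ NK replicate 1 and 0 without LM CD49a+ NK replicate 3 or MFL ILC1 replicate 1, 2 or 3.

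Glycolysis and hypoxia response genes gave 8 higher calls among 35 tested members and none lower, with 28 above 0 and a median of 0.68. Ldha, which encodes the lactate dehydrogenase of glycolytic cells, lay at 353, 334 and 245 CPM in LM CD49a+ NK cells and 68.6, 142 and 147 CPM in MFL ILC1 (log2 fold change 1.38 ± 0.28, adjusted p = 0.0118), Pfkp, which encodes platelet phosphofructokinase, at 355, 325 and 409.6 against 116, 99.8 and 117 CPM (log2 fold change 1.71 ± 0.22, adjusted p = 0.000173), and Tpi1, which encodes triose phosphate isomerase, at 138, 92.5 and 51.1 against 38.5, 23.7 and 24.4 CPM (log2 fold change 1.70 ± 0.47, adjusted p = 0.0750). MFL NK cells had 359 ± 38.3 CPM of Pfkp, level with the metastasis libraries, and 194 ± 41.7 CPM of Ldha. Ddit4, a stress-induced inhibitor of mTORC1, was called with a log2 fold change of 1.91 (adjusted p = 0.0875). The glucose transporter gene Slc2a1 was read at 134, 30.1 and 90 against 37.1, 43 and 27.1 CPM and overlapped (log2 fold change 1.25, 95% interval 0.27 to 2.22, adjusted p = 0.218), as did Pgk1 (log2 fold change 0.86, 95% interval 0.09 to 1.62, adjusted p = 0.292). The call of Tpi1 was lost on leaving out any library but LM CD49a+ NK replicate 3, with an adjusted p of up to 0.313. The call of Ddit4 was lost on leaving out any library but LM CD49a+ NK replicate 2, with an adjusted p of up to 0.409. Glycolytic calls numbered 5 without LM CD49a+ NK replicate 1 and 4 without MFL ILC1 replicate 1, 2 or 3.

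Type I interferon response genes gave 0 higher and 5 lower calls among 50 tested members, while the median log2 fold change was 0.10 and 27 were above 0, so the calls and the median point in different directions. Ddx60, an antiviral helicase gene, stood at 17.6, 8.68 and 1.89 CPM in LM CD49a+ NK cells and 102, 45.1 and 52.5 CPM in MFL ILC1 (log2 fold change -2.82 ± 0.73, adjusted p = 0.0504), and Ifi208, a gene of the IFI200 family of DNA sensors, at 48.2, 110.4 and 62.1 against 236, 215 and 208 CPM (log2 fold change -1.58 ± 0.39, adjusted p = 0.0389). Slfn8 and Samd9l, which restrict growth and viruses, had log2 fold changes of -1.10 and -1.0. The best-known targets were not called. Isg15 was found at 1.74, 22.5 and 0.299 against 1.02, 9.08 and 4.07 CPM (log2 fold change 0.79, 95% interval -2.86 to 4.44, adjusted p = 0.937), Ifit3 at 19.8, 26 and 3.39 against 46.2, 22 and 25.2 CPM (log2 fold change -0.92, 95% interval -2.63 to 0.79, adjusted p = 0.750), and Ifit1 and Rsad2, at 52.6, 32.6 and 29.9 against 19.4, 23.3 and 26.6 CPM for Ifit1 and 43.4, 36.2 and 22.2 against 8.66, 14.5 and 9.28 CPM for Rsad2, were higher in every LM CD49a+ NK library. The call of Ddx60 was lost on leaving out any library but LM CD49a+ NK replicate 1, with an adjusted p of up to 0.334. The call of Ifi208 was lost on leaving out LM CD49a+ NK replicate 1 or 3 or MFL ILC1 replicate 1, with an adjusted p of up to 0.166. The call of Slfn8 was lost on leaving out any library but LM CD49a+ NK replicate 2, with an adjusted p of up to 0.306. The call of Samd9l was lost on leaving out LM CD49a+ NK replicate 1 or 3 or MFL ILC1 replicate 1 or 3, with an adjusted p of up to 0.207. The count of lower calls was 2 without MFL ILC1 replicate 2, 1 without LM CD49a+ NK replicate 1 or MFL ILC1 replicate 3 and 0 without LM CD49a+ NK replicate 3 or MFL ILC1 replicate 1.

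Early response genes, which cells induce within minutes of receptor or stress signals, and heat shock genes were called in the higher direction alone. Of 27 tested AP-1, NR4A and EGR genes 9 were called higher (33.3%) and none lower, with a median of 0.87. Nr4a1 (chr15:101151980-101172681), an orphan nuclear receptor gene induced by antigen receptor and other signals, lay at 845, 222 and 3007 CPM in LM CD49a+ NK cells and 79.2, 38 and 39.5 CPM in MFL ILC1 (log2 fold change 4.70 ± 0.76, adjusted p = 0.00168), and LM CD49a+ NK replicate 3 was far above the other libraries. Its relative Nr4a3 was read at 682, 324 and 2187 against 229, 151 and 121 CPM (log2 fold change 2.67 ± 0.57, adjusted p = 0.0147), the cAMP-responsive Crem at 57.2, 28.2 and 126 against 18.4, 9.08 and 10.6 CPM (log2 fold change 2.47 ± 0.59, adjusted p = 0.0319), and the NF-κB regulator Nfkbiz at 630.0, 213 and 1559 against 211, 161 and 148 CPM (log2 fold change 2.21 ± 0.56, adjusted p = 0.0454). The classical members were not called. Fos stood at 709, 216 and 548 against 496, 413 and 223 CPM (log2 fold change 0.38, 95% interval -0.53 to 1.29, adjusted p = 0.835), Jun at 1709, 1158 and 846 against 1292, 1503 and 1002 CPM (log2 fold change -0.03, 95% interval -0.67 to 0.61, adjusted p = 0.990) and Egr1 at 301, 90.8 and 239 against 136, 111 and 113 CPM (log2 fold change 0.81, 95% interval 0.02 to 1.6, adjusted p = 0.338), all with overlap. The call of Nr4a3 was lost on leaving out LM CD49a+ NK replicate 3, with an adjusted p of up to 0.115. The call of Crem was lost on leaving out LM CD49a+ NK replicate 3 or MFL ILC1 replicate 2 or 3, with an adjusted p of up to 0.214. The call of Nfkbiz was lost on leaving out LM CD49a+ NK replicate 3 or MFL ILC1 replicate 1, 2 or 3, with an adjusted p of up to 0.314. Early response calls numbered 5 without MFL ILC1 replicate 1, 3 without MFL ILC1 replicate 2 or 3 and 1 without LM CD49a+ NK replicate 3. The list summed to 8290 to 31200 CPM in LM CD49a+ NK cells, highest in replicate 3, and to 8470 to 12500 CPM in MFL ILC1, and in the populations outside the comparison it summed to 10500 to 36700 CPM in LM CD49a- NK cells and 11100 to 13100 CPM in MFL NK cells.

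Of 19 tested heat shock genes 5 were called higher and none lower, with 18 above 0 and a median of 0.78. The inducible chaperone genes Hspa1a and Hspa1b were read at 331, 854 and 225 CPM in LM CD49a+ NK cells and 114, 27.4 and 9.38 CPM in MFL ILC1 for Hspa1a (log2 fold change 3.22 ± 0.68, adjusted p = 0.0142) and 514, 1654 and 454 against 162, 82.3 and 26 CPM for Hspa1b (log2 fold change 3.28 ± 0.57, adjusted p = 0.00297). LM CD49a+ NK replicate 2 was highest and MFL ILC1 replicate 1 was the highest of the ILC1 libraries. These paralogs are nearly identical, so the split of reads between them is uncertain. Hsp90ab1, a constitutive HSP90 gene, was found at 3123, 2644 and 2756 against 1211, 1606 and 1393 CPM (log2 fold change 1.02 ± 0.22, adjusted p = 0.0169), and the cochaperone gene Dnajb4 had a log2 fold change of 1.5. Dnajb1 lay at 144, 239 and 98.3 against 97.2, 103 and 88.9 CPM (log2 fold change 0.74, 95% interval 0.08 to 1.39, adjusted p = 0.288) and Hsph1 at 227, 353 and 97.9 against 105, 164 and 67.9 CPM (log2 fold change 1.01, 95% interval 0.13 to 1.89, adjusted p = 0.277). The call of Dnajb4 was lost on leaving out LM CD49a+ NK replicate 3 or MFL ILC1 replicate 1, 2 or 3, with an adjusted p of up to 0.394. The call of Hsp90ab1 was lost on leaving out MFL ILC1 replicate 1, with an adjusted p of up to 0.118. Heat shock calls numbered 3 without LM CD49a+ NK replicate 3 or MFL ILC1 replicate 2 and 2 without MFL ILC1 replicate 1. The list summed to 9730 to 12600 CPM in LM CD49a+ NK cells and 8820 to 12400 CPM in LM CD49a- NK cells, which were digested with enzyme at 37 °C, and to 5650 to 6650 CPM in MFL ILC1 and 5720 to 7390 CPM in MFL NK cells, which were not. For both lists, site and dissociation cannot be told apart.

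**Figure D4:**
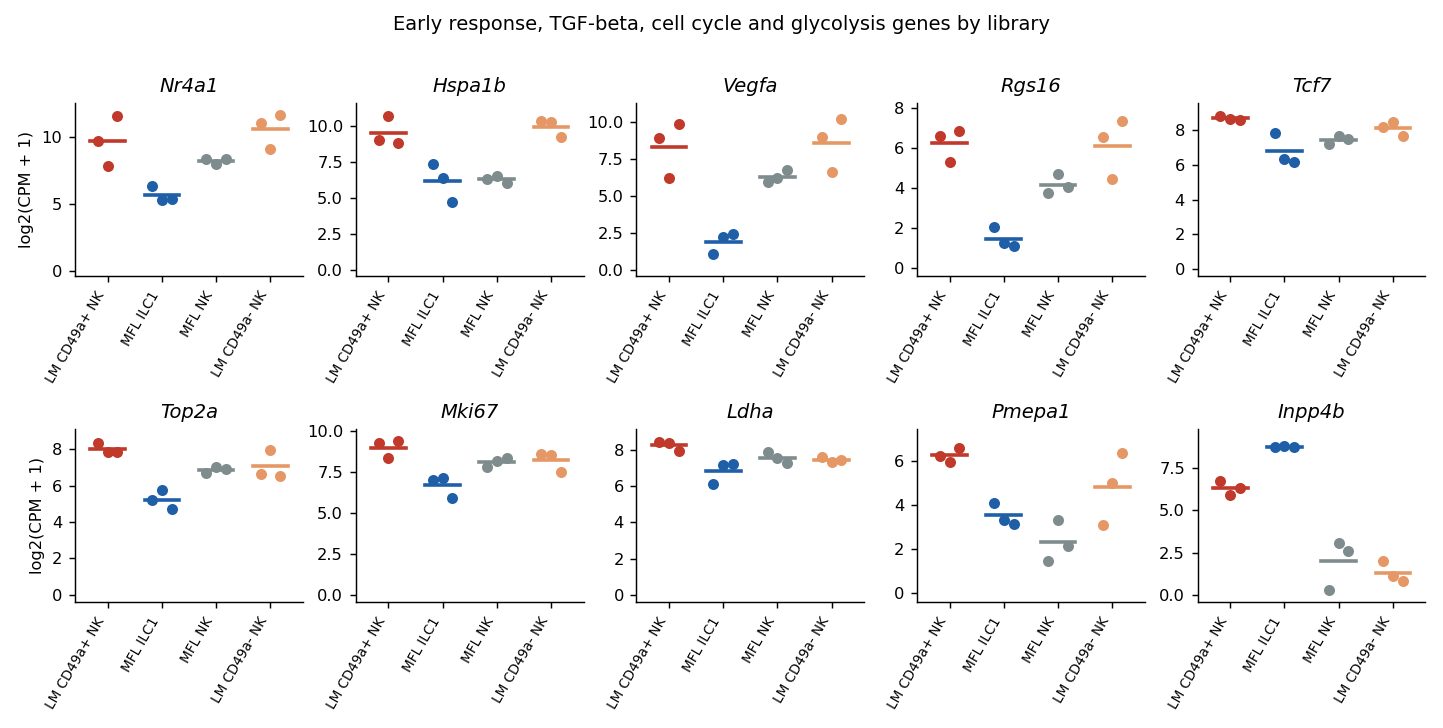
Levels of 10 early response, stress, division, glycolysis and other genes as log2(CPM + 1) on the vertical axis, 1 point per library and a bar at the mean of 3 libraries, in LM CD49a+ NK cells, MFL ILC1, MFL NK cells and LM CD49a- NK cells. Nr4a1, Hspa1b, Vegfa and Rgs16 of LM CD49a+ NK cells lie above MFL ILC1 without overlap. For Vegfa, LM CD49a+ NK replicate 2 lies below the MFL NK mean. Top2a and Mki67 have their highest means in LM CD49a+ NK cells. Inpp4b is high in MFL ILC1, lower in LM CD49a+ NK cells and lowest in both CD49a- NK populations. Its means there are 4.33 CPM (MFL NK cells) and 1.67 CPM (LM CD49a- NK cells).

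Genes of the BCL2 family, which set the threshold for apoptosis, gave few calls, with 1 of 17 tested members called higher. Pmaip1, which encodes the proapoptotic NOXA, was read at 37.7, 24.3 and 22.7 CPM in LM CD49a+ NK cells and 0.934, 1.54 and 0.853 CPM in MFL ILC1 (log2 fold change 4.65 ± 1.30, adjusted p = 0.0771). The call of Pmaip1 was lost on leaving out any library but LM CD49a+ NK replicate 2, with an adjusted p of up to 0.287. Bcl2 itself stood at 488, 546 and 691 against 664, 589 and 593 CPM (log2 fold change -0.10, 95% interval -0.59 to 0.40, adjusted p = 0.947), Mcl1 at 309.7, 413 and 529.7 against 502, 464 and 487 CPM (log2 fold change -0.22, 95% interval -0.70 to 0.27, adjusted p = 0.817), and Bcl2l11, which encodes the proapoptotic BIM, at 386, 260.1 and 535 against 275, 248 and 187 CPM (log2 fold change 0.73, 95% interval 0.07 to 1.40, adjusted p = 0.298). All 3 overlapped.

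The largest higher calls included genes without a single count in the ILC1 libraries, for which a fold is a lower bound against 3 counts per library. Cmah (chr13:24511222-24661360), which encodes the hydroxylase that makes N-glycolylneuraminic acid, was found at 6.78, 45.3 and 44 CPM in LM CD49a+ NK cells, at least 127-fold higher than in MFL ILC1 (adjusted p = 2.75e-05), and at 106 ± 23.7 CPM in MFL NK cells. Ret, which encodes the receptor tyrosine kinase for GDNF-family ligands, lay at 5.62, 7.51 and 49 CPM, at least 81.9-fold higher (adjusted p = 0.00491), and Wdr95 at 23.4, 16.6 and 14.1 CPM, at least 71.4-fold higher (adjusted p = 0.000368). MFL NK cells had 1.48 ± 1.43 CPM of Ret and LM CD49a- NK cells 18.9 ± 5.98 CPM. Genes with 1 to 3 counts in MFL ILC1 have a ratio with a counting interval that covers counting error only. Cma1, a chymase gene, was read at 9.78, 17.5 and 16.4 CPM, 532-fold (counting interval 95.1 to 21059.6) higher, Angpt1, which encodes the TIE2 ligand angiopoietin-1, at 28.4, 12.1 and 34.8 CPM, 433-fold (counting interval 119 to 3579.5) higher, and Sema6a, a semaphorin gene, at 4.45, 13.7 and 57 CPM, 431-fold (counting interval 119 to 3562) higher. Kcnc1, a potassium channel gene, stood at 12.4, 23.9 and 41.7 CPM, 309-fold (counting interval 105 to 1500.2) higher, and the retinal reductase gene Dhrs3 at 66.9, 39.7 and 106 CPM in LM CD49a+ NK cells and 0, 0.878 and 0.758 CPM in MFL ILC1 (log2 fold change 6.98 ± 0.77, adjusted p = 4.98e-05).

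The largest lower calls had 0 counts in all 3 LM CD49a+ NK libraries. Zeros were more frequent in these libraries in general, with 1270 to 2784 tested genes at 0 counts per library, beside 259 to 1796 in MFL ILC1. Adam19 (chr11:45946775-46038172), which encodes a membrane metalloprotease, was found at 287, 298 and 254 CPM in MFL ILC1, so that LM CD49a+ NK cells were at least 1017-fold lower (adjusted p = 1.22e-07). MFL NK and LM CD49a- NK cells had 0.0490 ± 0.0425 and 0 ± 0 CPM, so Adam19 RNA was seen almost only in the ILC1 libraries among the 4 populations. The lipid transporter gene Abca3 lay at 60.7, 53 and 57 CPM and Tmem273 at 53.5, 50.6 and 51.3 CPM in MFL ILC1, at least 207-fold and 189-fold lower in LM CD49a+ NK cells (adjusted p = 0.00180 and 0.000952). Tle2, a Groucho-family corepressor gene, at 21.4, 28.8 and 35.3 CPM, and Ccdc80, which encodes a matrix protein, at 35.5, 20.1 and 18.9 CPM in MFL ILC1, were at least 104-fold and 90.4-fold lower. Aqp9 and Bmp7, which encode an aquaglyceroporin and a bone morphogenetic protein, and Pak6, Plekhd1, Aplp1 and Or4c12 were also at 0 in every LM CD49a+ NK library, with 7.81 to 22.3 CPM in MFL ILC1. The call of Tle2 was lost on leaving out MFL ILC1 replicate 3, with an adjusted p of up to 0.110. The call of Ccdc80 was lost on leaving out MFL ILC1 replicate 1, with an adjusted p of up to 0.162. The calls of Aqp9, Bmp7, Pak6 and Plekhd1 were lost on leaving out any library but LM CD49a+ NK replicate 2, with adjusted p values of up to 0.172, 0.136, 0.200 and 0.194 in that order. The calls of Aplp1 and Or4c12 were lost on leaving out any single library, with adjusted p values of up to 0.259 and 0.273 in that order. The mitochondrial gene mt-Atp6, the twelfth of these genes, was at 0 counts in every LM CD49a+ NK library and at 1919, 2157 and 1870 counts in MFL ILC1. It was also at 0 in all LM CD49a- NK libraries and at 1592 to 2293 counts in MFL NK cells, and so divided the libraries by site and not by cell population.

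The libraries outside the comparison placed the called genes. Of the 311 genes called higher, the mean log2 CPM of both MFL NK and LM CD49a- NK cells lay nearer to LM CD49a+ NK cells than to MFL ILC1 for 200 (64.3%), as for Eomes, Klra8, Cmklr1 and S1pr1. For 56 (18%) LM CD49a- NK cells alone did, while the MFL NK mean lay nearer to MFL ILC1, as for Tcf7, Hspa1b, Nr4a3, Tgfb1, Smad7, Skil and Socs3. A nearer mean does not say that the libraries of the populations were separate. For 15 (4.82%) MFL NK cells alone did, and for 40 (12.9%) both populations lay nearer to MFL ILC1, as for Pmepa1, Tnfrsf9, Cdk6, Myc, Mcm7, Cenpf and Tpi1. Of the 175 genes called lower, the numbers were 110 (62.9%), 27 (15.4%), 6 (3.43%) and 32 (18.3%) in the same order. The MFL NK mean lay between those of LM CD49a+ NK cells and MFL ILC1 for 195 of the higher and 127 of the lower genes. The LM CD49a+ NK mean lay between those of MFL ILC1 and MFL NK cells for 101 of the higher and 45 of the lower genes, among them Klra8, Itgam, Itga4, Prf1, Tnfsf10 and Inpp4b. These positions were not tested, and the reference libraries share sites with both groups.

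**Figure D5:**
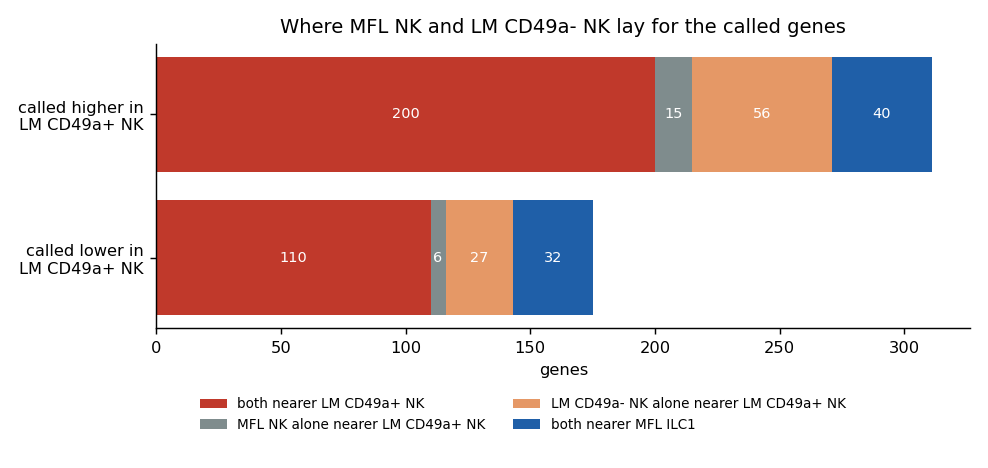
Number of genes called higher or lower in LM CD49a+ NK cells relative to MFL ILC1, divided by whether the mean log2 CPM of MFL NK cells and of LM CD49a- NK cells lay nearer to LM CD49a+ NK cells or to MFL ILC1. Both NK populations lay nearer to LM CD49a+ NK cells for 200 of 311 higher and 110 of 175 lower genes.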

How the data were processed

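Per the labels and the study's methods, stranded total RNA libraries of sorted cells were sequenced with paired reads, which the authors trimmed (Trim Galore), quantified with Salmon (v1.5.0 and v1.10.0 are both named) against GENCODE M27 (GRCm39) and summed transcripts to genes. The deposited table holds unnormalized estimated counts of 54309 genes, here rounded to integers. GENCODE vM39 gave names and positions for 53700 IDs. The 12 lymphocyte libraries were fitted together with edgeR v4.0.16 in R v4.3.3 (filterByExpr, TMM, quasi-likelihood test, no covariates), which left 13594 genes. The standard error is the size of the log2 fold change divided by the square root of F, and 95% intervals used the fit's degrees of freedom. Calls had a Benjamini-Hochberg adjusted p under 0.1. The fit was tested on simulated counts. Levels are CPM, and totals of 10078965 to 12387665 counts in the 6 libraries limit precision for genes of a few counts.

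The members, 24 gene lists and 8 lists of markers of other cells were chosen with earlier results of these data known. Named genes are the 12 largest calls per direction (protein-coding, at least 10 CPM in the higher group, no overlap, no clone name), key members of the lists, and up to 4 called members per list and direction. Alternatives were DESeq2 v1.42.0, limma-voom (limma v3.58.1), RLE size factors, no filter, the 6 libraries alone, without mitochondrial, ribosomal RNA and small RNA genes, a replicate block, a stricter threshold and leaving out each library. Promoters came from RefSeq. Plots used Python v3.11.15 and matplotlib v3.10.9. The 6 macrophage libraries were not used. Some list members are not reported here.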

Additional observations from a re-analysis of the deposited data

How the results depend on the processing

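The counts of 311 higher and 175 lower calls stayed within 1.5 times under 4 settings, the 6 libraries alone (273 and 203), RLE size factors (310 and 175), without mitochondrial, ribosomal RNA and small RNA genes (319 and 171) and a replicate block, and moved further under 4 others. Without the low-count filter 475 and 299 of 21988 genes were called, DESeq2's Wald test called 536 and 474 (53.1% of its calls higher, beside 64% here, with 564 adjusted p values not available), limma-voom with sample weights called 528 and 407 with a median log2 fold change over all genes of -0.28 in place of -0.07, and an adjusted p under 0.05 left 212 and 110. Leaving out 1 library gave 166 to 336 higher and 85 to 249 lower calls. None of the 486 calls changed direction under these alternatives where it could be fitted. Of 122 called named genes 66 were called under all of the 14 alternatives that gave an adjusted p, 21 were lost under 1 to 3 and 35 under more, and of 64 not called 25 were called under at least 1, such as Cxcr3 and Ncr1. Deviations from the group means were not shared by same-numbered libraries (r = 0.0391, 0.0697 and -0.0374 across genes, between LM CD49a+ NK and MFL ILC1), and LM CD49a+ NK replicate 3 correlated best with MFL ILC1 replicate 1, so the numbers were not used as pairs. These correlations cannot show whether pools of a sorting shared mice. With the replicate number as a block 296 genes were called higher and 188 lower, 281 and 161 of them shared with the fit without it. Depth limits genes of a few counts. The causes of these differences were not tested.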

Other observations

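Other gene groups, chosen after their values were seen and given as counts with no test of the group, followed the comparison. Of 81 tested cytosolic ribosomal protein genes 11 were called higher in LM CD49a+ NK cells and 0 lower, 79 had a log2 fold change above 0 and the median was 0.77. Leaving out LM CD49a+ NK replicate 1 or MFL ILC1 replicate 1, 2 or 3 left 3, 3, 4 and 7 higher calls. Rplp0, a stalk protein of the large subunit, was read at 1966, 1339 and 1231 CPM in LM CD49a+ NK cells and 559, 546 and 747 CPM in MFL ILC1 (log2 fold change 1.29 ± 0.26, adjusted p = 0.00958), and the group summed to 32543 to 56366 CPM against 20900 to 30502 CPM in MFL ILC1, with 16131 to 34302 CPM in MFL NK cells. Of 63 tested replication-dependent histone genes 7 were called higher and 0 lower, 57 were above 0 and the median was 1.78, and 3 were called without LM CD49a+ NK replicate 3 or MFL ILC1 replicate 3. The histone genes summed to 3335.7 to 4809.5 CPM in LM CD49a+ NK cells and 1289.4 to 2154.8 CPM in MFL ILC1. Sums were 2309.1 to 4449.2 CPM in MFL NK cells, overlapping LM CD49a+ NK cells, and 2460.3 to 3117.8 CPM in LM CD49a- NK cells. H3c2 stood at 141, 58.2 and 60 against 5.09, 17.7 and 5.59 CPM (log2 fold change 3.19 ± 0.57, adjusted p = 0.00422). Histone RNA is mostly not polyadenylated, and these were total RNA libraries. Of 12 NF-κB family and inhibitor genes 5 were called higher and all 12 were above 0. Nfkbia, the inhibitor that NF-κB itself induces, was found at 542, 283 and 1069.6 against 189, 143 and 147 CPM (log2 fold change 1.98 ± 0.45, adjusted p = 0.0228). All 5 calls were lost on leaving out LM CD49a+ NK replicate 3, that of Nfkbia with an adjusted p of 0.161, and 4 of the 5, all but Nfkbia, on leaving out any 1 of the MFL ILC1 libraries. The group summed to 2388.5 to 11612 CPM in LM CD49a+ NK cells, 2215.8 to 2947.6 CPM in MFL ILC1 and 3380.9 to 14653 CPM in LM CD49a- NK cells.

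Genes of the Notch pathway were called in both directions, 3 higher and 2 lower of 22 tested. Nrarp, a feedback inhibitor that Notch induces, lay at 127, 60.8 and 269 CPM in LM CD49a+ NK cells and 11.5, 5.20 and 6.06 CPM in MFL ILC1 (log2 fold change 4.32 ± 0.56, adjusted p = 0.000238). The ligand gene Dll1 was read at 0, 1.56 and 0 against 58.8, 86.4 and 69.5 CPM (log2 fold change -7.01 ± 1.54, adjusted p = 0.0177), and Dtx1, which encodes the regulator Deltex, at 0, 3.13 and 9.07 against 92.7, 194 and 162 CPM (log2 fold change -5.20 ± 1.06, adjusted p = 0.0111). Hes1 and Maml3 were the other 2 higher calls, with log2 fold changes of 3.53 and 3.71. The call of Hes1 was lost on leaving out any library but LM CD49a+ NK replicate 2, with an adjusted p of up to 0.326. The call of Maml3 was lost on leaving out LM CD49a+ NK replicate 3 or MFL ILC1 replicate 2 or 3, with an adjusted p of up to 0.235. Of the 4 tested CD200 receptor genes 3 were called lower, with 2 called without LM CD49a+ NK replicate 3 or any 1 MFL ILC1 library. All 4 were lower in every LM CD49a+ NK library, beside 13.9% of all tested genes. Cd200r2 stood at 0, 1.25 and 1.20 against 181, 155 and 165 CPM (log2 fold change -7.64 ± 0.96, adjusted p = 0.000272) and Cd200r4 at 10.1, 21.1 and 4.09 against 61.8, 69.2 and 55 CPM (log2 fold change -2.40 ± 0.53, adjusted p = 0.0187). Art2b, which encodes an ADP-ribosyltransferase that acts on the P2rx7 channel, was found at 0, 0.860 and 0 against 20.4, 60.1 and 60.1 CPM (log2 fold change -7.25 ± 1.56, adjusted p = 0.0193). The call of Art2b was lost on leaving out MFL ILC1 replicate 2 or 3, with an adjusted p of up to 0.140. Of 15 tested genes of guanylate-binding proteins and immunity-related GTPases, 1 was called higher and 3 lower, and 1 or 2 remained of the lower calls on leaving out 1 library. Gbp9 lay at 107, 134 and 90.8 against 276, 274 and 274 CPM (log2 fold change -1.31 ± 0.27, adjusted p = 0.0108), and Gbp3 at 199.9, 112 and 139 against 54.8, 43.5 and 43.1 CPM (log2 fold change 1.67 ± 0.32, adjusted p = 0.00697). The call of Irgm2 was lost on leaving out any single library, with an adjusted p of up to 0.262.

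A few genes divided the 12 lymphocyte libraries by site. Besides mt-Atp6, with 0 counts in all 6 metastasis libraries and 1592 to 2293 counts in the 6 MFL libraries, 6 other genes had 0 counts in all metastasis libraries and at least 10 in each MFL library, namely Apob, Itih4, Ahsg, Pzp, Acad10 and Gm45250, of which the first 4 are genes that hepatocytes transcribe. No gene had the opposite pattern. Tested genes at 0 counts numbered 1270 to 2784 per LM CD49a+ NK library and 880 to 3555 per LM CD49a- NK library. They numbered 259 to 1796 per MFL ILC1 library and 212 to 1461 per MFL NK library. The cause was not tested.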
